A study of Cavia porcellus with 30 samples.

Results

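A set of 142 transcripts of the guinea pig kidney, out of 25824 listed in the data, had a lower mean level than in vehicle animals with both doses of mercuric chloride and at both sampling times. Members were chosen from the deposited TPM values (an abundance corrected for transcript length and scaled to the same total in every animal) in the following way. For each of the 4 treated groups, L was the log2 ratio of the treated mean to the vehicle mean of the same time, after adding 1 TPM to each mean, and a member had an L of at most -0.58 in all 4 groups. That limit corresponds to 66.9% of the vehicle value on the TPM + 1 scale. Lower levels in treated animals therefore define the set and are given below as a description.

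The 30 animals were male Hartley guinea pigs bought at 4 weeks of age, which carried a jugular catheter and recovered from its implantation before dosing. They formed 6 groups of 5. The Vehicle 9 h and Vehicle 33 h groups received saline, the Low 9 h and Low 33 h groups received 1.00 mg/kg mercuric chloride, and the High 9 h and High 33 h groups received 1.50 mg/kg, all as 1 intraperitoneal dose. All animals were fasted during the day before the kidneys were taken, and both sampling times fell at the same hour of the day. RNA was isolated from powdered whole kidney, so each value is an average over all kidney cell types, and fewer cells of a type and less RNA per cell cannot be told apart. The libraries held from 23134713 to 36072327 estimated counts each. At each time, both doses were compared with the same 5 vehicle animals.

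Mercuric chloride is a classical nephrotoxicant. Its main target in the kidney is the proximal tubule, whose epithelial cells take up inorganic mercury through organic anion and amino acid transporters and reabsorb most of the filtered solutes. Steady-state transcript levels in a whole organ reflect synthesis, decay and the number of cells that carry the transcript. The files give Ensembl transcript identifiers without gene names, and none of the 142 members could be matched to a symbol through the gene table used here, so the members are described by identifier, length and level. Kidney cell type markers could not be read for the same reason, and the tissue rests on the labels.

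The members were on the whole well expressed without mercuric chloride. Their mean over the 10 vehicle animals had a median of 26.3 TPM and ran from 1.27 to 2439.97 TPM, with quartiles of 7.64 and 119 TPM. Among the 16028 transcripts with a vehicle mean of at least 1 TPM the median was 10.6 TPM. At least 100 TPM was reached by 41 members (28.9%), against 3.98% of all transcripts, and at least 10 TPM by 101 members (71.1%), against 32.1%. All 142 members reached 1 TPM, against 62.1% of all transcripts, and this widens both contrasts. The rule adds 1 TPM before the ratio, which keeps out transcripts of low level, so part of these differences is built into the choice. Of the 1000 transcripts with the highest vehicle mean, 40 were members, and 4 of these stood among the highest 100. The 3 highest members held 29.7% of the summed vehicle level of the set, and the 41 members of at least 100 TPM held 88.2%.

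Length was not used by the rule. The median length of the members was 2031 bases, with a range from 105 to 7464 bases, and that of the transcripts with a vehicle mean of at least 1 TPM was 2434 bases. Only ENSCPOT00000041649.1, singled out after its values were seen, was shorter than 200 bases. Kallisto divides reads shared by similar transcripts, and its estimated counts were whole numbers (within 1e-06) in all 30 animals for 59 members (41.5%), against 40.8% of the transcripts of at least 1 TPM.

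The reduction was deepest with the high dose at 33 h. The median level of a member, as a percentage of its vehicle mean, was 50.0% in Low 9 h, 33.8% in High 9 h, 52.2% in Low 33 h and 16.7% in High 33 h. On the log2 scale the median L was -0.87, -1.32, -0.82 and -2.05 in the same order, while the median over all transcripts was 0.03, 0.01, 0 and 0. High 33 h had the lowest L of the 4 groups for 115 members, High 9 h for 22, Low 9 h for 4 and Low 33 h for 1. The group closest to the limit, which decided membership, was Low 33 h for 72 members and Low 9 h for 68. Of all transcripts, the limit was passed by 1.84% in Low 9 h, 3.65% in High 9 h, 1.79% in Low 33 h and 5.96% in High 33 h.

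**Figure D1:**
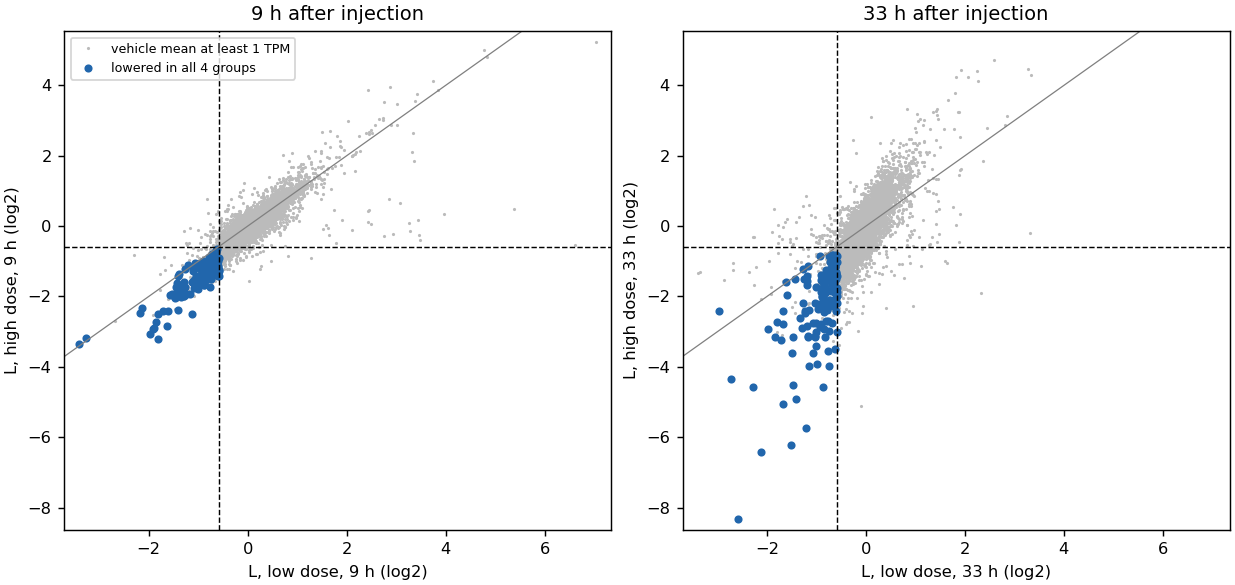
L of each transcript with the low dose (horizontal axis, log2) against the high dose (vertical axis, log2), at 9 h (left) and 33 h (right); grey points are transcripts with a vehicle mean of at least 1 TPM, blue points the 142 members, dashed lines the limit of -0.58, and the solid line marks equal L. At 33 h the members extend down to -2.97 (low dose) and -8.33 (high dose).

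At or under 10% of the vehicle mean were 2 members in Low 9 h, 6 in High 9 h, 3 in Low 33 h and 38 in High 33 h. Of the transcripts with a vehicle mean of at least 1 TPM, 0.0437%, 0.0811%, 0.125% and 0.468% were as low in these groups. A group of 24 members was at or under 5% of vehicle in High 33 h. The median of these 24 in High 33 h was 2.16% of vehicle, and they retained a median of 30.4% in Low 9 h, 19.1% in High 9 h and 28.1% in Low 33 h. For the other 118 members the medians were 51.8%, 36.6%, 54.2% and 20.6% in Low 9 h, High 9 h, Low 33 h and High 33 h. The median vehicle level was 27.5 TPM for the 24 members and 26.3 TPM for the other 118. Across the 142 members the percentage of vehicle in High 9 h and in High 33 h had a Spearman's rho of 0.43, and in Low 9 h and Low 33 h of 0.48. These correlations are across transcripts of the same animals, which are not independent replicates, and are given as a description.

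The treated animals were separated from the vehicle animals most often with the high dose. All 5 treated animals lay under all 5 vehicle animals for 70 members in Low 9 h, 111 in High 9 h, 70 in Low 33 h and 126 in High 33 h, and for 40 members in all 4 groups. Among the 19729 transcripts with enough counts for a test, the same separation was found in 2.09%, 4.31%, 2.65% and 13.2%. Since the rule selected on these group means, nothing further is read from these counts.

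**Figure D2:**
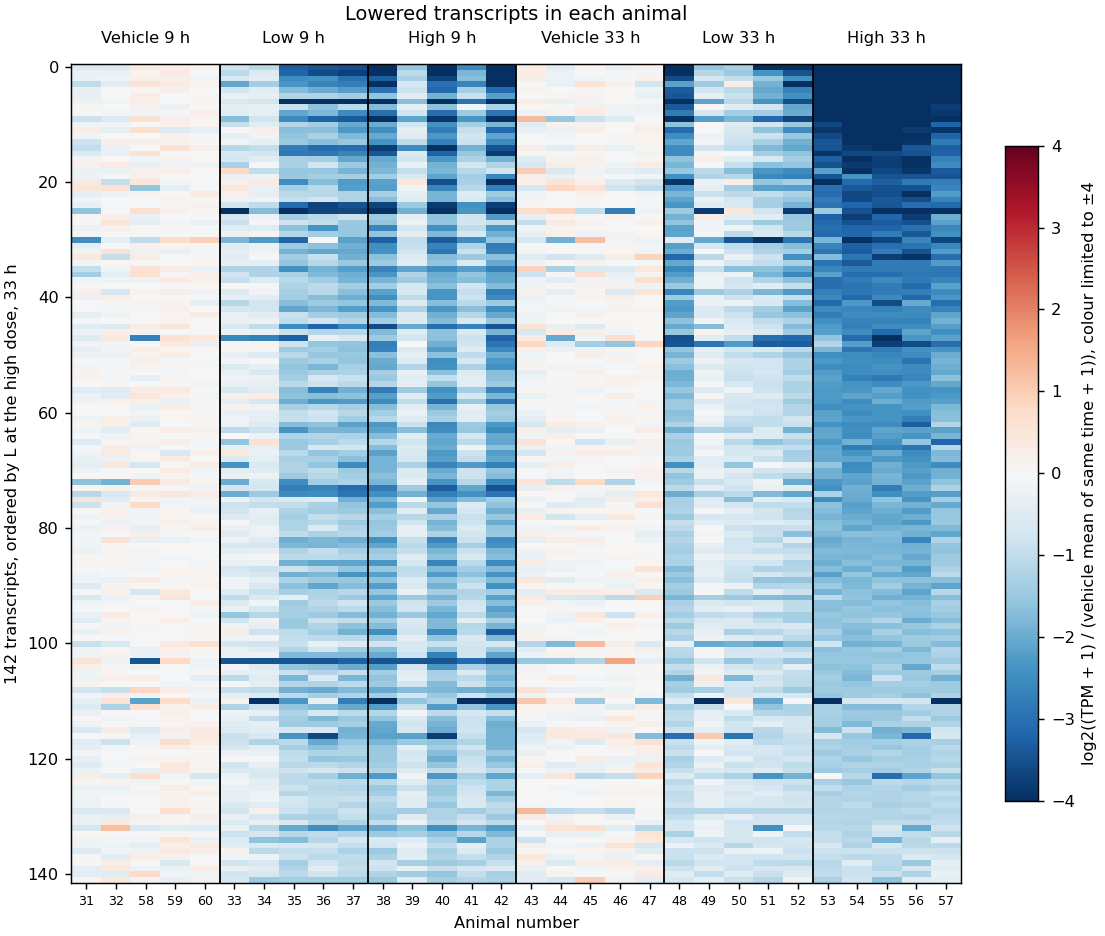
Log2 ratio of each animal to the vehicle mean of the same time, after adding 1 TPM, for the 142 members (rows, ordered by L in High 33 h) in the 30 animals (columns, by animal number), with blue for lower, red for higher and the colour limited to ±4. Columns 33 and 34, 39 and 41, and 49 are paler than their neighbours over most rows, and the 5 columns of High 33 h are darkest at the top, where L reaches -8.33, and paler at the bottom, where it ends at -0.81.

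The animals given the same dose differed strongly in these transcripts. The median over members of the log2 difference from the vehicle mean was -0.42, -0.43, -1.33, -1.32 and -1.50 in animals 33 to 37 of Low 9 h. In High 9 h it was -1.77, -0.66, -1.87, -0.93 and -1.90 in animals 38 to 42. Animals 33 and 34 were thus closer to vehicle than the other 3 of Low 9 h, and animals 39 and 41 closer than the other 3 of High 9 h. At 33 h the low dose gave -1.46, -0.37, -0.76, -0.89 and -1.21 in animals 48 to 52. The high dose at 33 h gave -1.93, -2.12, -2.06, -2.24 and -1.80 in animals 53 to 57. The ranges of the doses overlapped at 9 h and did not overlap at 33 h. The 10 vehicle animals lay between -0.19 and 0.11.

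The order of the animals within a group was shared by most members. Animals 33 and 34 held the 2 highest values of Low 9 h in 121 members (85.2%), against 20.9% of the transcripts of at least 1 TPM, and animals 39 and 41 those of High 9 h in 128 members (90.1%), against 24.7%. In Low 33 h animal 48 was the lowest in 107 members (75.4% against 20.7%) and animal 49 the highest in 102 (71.8% against 18.2%). These animals were singled out after their values were seen. The spread between animals was wide, with a median coefficient of variation over members of 49.7% in Low 9 h, 55.2% in High 9 h, 44.8% in Low 33 h and 35.1% in High 33 h, compared with 17.1% and 16.3% in Vehicle 9 h and Vehicle 33 h. For the transcripts of at least 1 TPM this median lay between 10.1% and 14.4% in the 6 groups. The rule did not use the spread, but the lower treated means are the denominators of these coefficients.

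The members' share of the summed TPM was 1.88% ± 0.147 (SD, n = 5) in Vehicle 9 h, 0.968% ± 0.397 in Low 9 h and 0.684% ± 0.326 in High 9 h. At 33 h it was 1.72% ± 0.0821 in Vehicle 33 h, 0.903% ± 0.305 in Low 33 h and 0.299% ± 0.0583 in High 33 h. Animal 49 of Low 33 h, at 1.34%, was nearest to the vehicle animals of that time, the lowest of which stood at 1.59%. The 5 high-dose animals at 33 h were between 0.246% and 0.395%, under animal 48, the lowest of the low dose, at 0.549%.

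**Figure D3:**
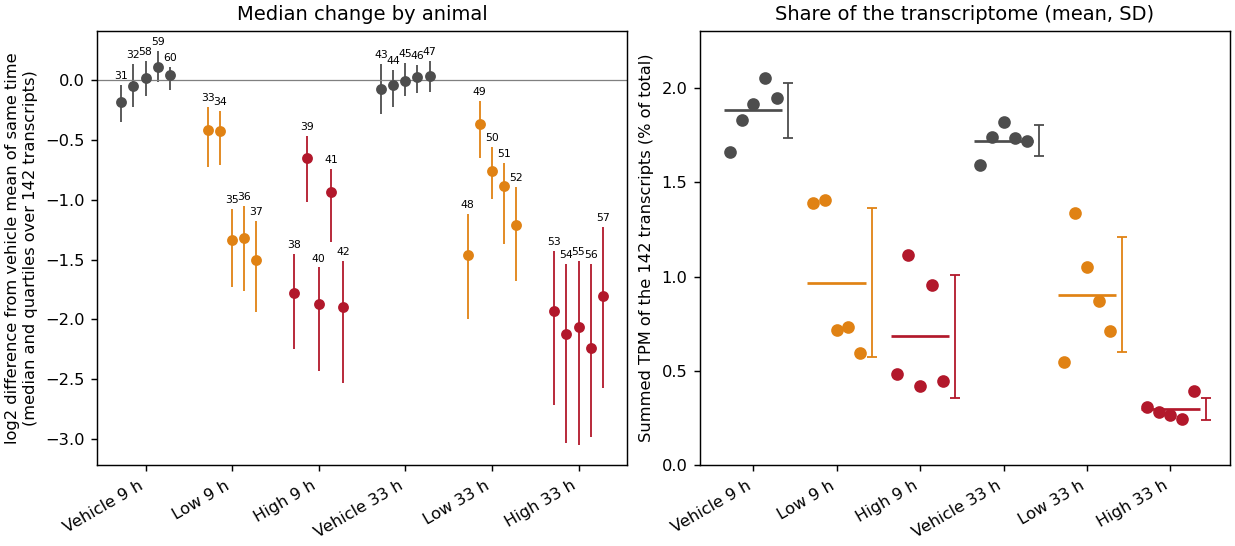
Left, median (point) and quartiles (bar) over the 142 members of the log2 difference from the vehicle mean of the same time in each animal, labelled with its number; right, the members' share of the summed TPM in percent, with points for animals, a line for the group mean and a bar for ±1 SD. The high-dose animals at 33 h lie below every low-dose animal at that time, whereas at 9 h the ranges of the doses overlap.

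The 2 members with the highest vehicle level were ENSCPOT00000023648.2 (1344 bases) and ENSCPOT00000002552.3 (1140 bases). In order of animal number, ENSCPOT00000023648.2 stood at 2468, 2164, 2331, 2996 and 2803 TPM in Vehicle 9 h, at 2602, 1923, 1093, 1165 and 928 TPM in Low 9 h, and at 869, 1483, 702, 1429 and 649 TPM in High 9 h. At 33 h its values were 2194, 2286, 2309.6, 2479 and 2370.5 TPM with vehicle, 1239.8, 1733, 1578, 1681 and 1536 TPM with the low dose, and 709, 643, 547, 469 and 831 TPM with the high dose. Animal 33 lay within the vehicle range at 9 h, while at 33 h the 3 groups were fully separated. ENSCPOT00000002552.3 averaged 1669 ± 158 TPM in Vehicle 9 h, 962 ± 299 in Low 9 h, 654 ± 211 in High 9 h, 1469 ± 141 in Vehicle 33 h, 797 ± 169.8 in Low 33 h and 429.6 ± 29.4 in High 33 h (SD, n = 5). Its high-dose values at 33 h, from 404 to 479 TPM, were the least variable of its treated groups.

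The lowest mean L over the 4 groups, among members with at least 5 TPM in both vehicle groups, belonged to ENSCPOT00000009386.3 (1131 bases) and ENSCPOT00000025569.2 (1654 bases). ENSCPOT00000009386.3 stood at 558, 560.4, 1087, 997 and 914 TPM in Vehicle 9 h, at 468, 389, 82.6, 76.6 and 71.6 TPM in Low 9 h, and at 36.6, 277, 46.1, 137 and 44.1 TPM in High 9 h. At 33 h it stood at 621, 377, 550.5, 414 and 583 TPM with vehicle, at 3.83, 174, 204, 31.8 and 6.54 TPM with the low dose, and at 0.567, 0.262, 0.489, 0.879 and 0.725 TPM with the high dose. Every treated animal lay below every vehicle animal of its time, and no high-dose animal at 33 h overlapped the low dose. The high-dose values at 33 h rest on 6 to 19 estimated counts per animal, against 7676 to 12802 with vehicle. Within Low 33 h, animals 48 and 52 were far lower than animals 49 and 50.

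ENSCPOT00000025569.2 stood at 406, 397, 533, 606 and 491 TPM in Vehicle 9 h, at 234, 330.2, 51.6, 40.0 and 35.3 TPM in Low 9 h, and at 22.9, 232, 20.2, 137 and 12.1 TPM in High 9 h. At 33 h it stood at 529, 364, 429, 416 and 398 TPM with vehicle, at 21.8, 193, 153, 81.1 and 37.5 TPM with the low dose, and at 5.20, 3.01, 2.17, 3.43 and 5.93 TPM with the high dose. The same animals as for ENSCPOT00000009386.3 were the least reduced, namely 33 and 34 in Low 9 h, 39 and 41 in High 9 h, and 49 and 50 in Low 33 h. ENSCPOT00000025515.2 (1635 bases) followed this order as well, with 17.8, 137, 113, 79.1 and 40.7 TPM in Low 33 h and 2.07, 0.711, 1.26, 2.01 and 4.01 TPM in High 33 h, against 189 to 272 TPM with vehicle at 33 h.

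Of the members, 9 could be linked to an Ensembl gene identifier through a listing made by the study, and no symbol was taken from that listing. Among them, ENSCPOT00000042426.1 (gene ENSCPOG00000034579, 1736 bases), singled out after its values were seen, had 866, 787, 859, 804 and 703 TPM in Vehicle 33 h, 79.4, 486, 378, 193 and 123 TPM in Low 33 h, and 26.7, 11.0, 17.3, 19.8 and 40.2 TPM in High 33 h. Its low-dose animals spread over a wide range between the vehicle and high-dose animals without touching either. ENSCPOT00000047573.1 (4924 bases), chosen in the same way, had 904, 902, 985, 772 and 726 TPM in Vehicle 33 h, 82.3, 911, 624, 508 and 207 TPM in Low 33 h, and 36.7, 19.2, 29.1, 28.9 and 62.3 TPM in High 33 h. Animal 49 was within its vehicle range and animal 48 near the high-dose animals. At 9 h the same transcript had nearly equal means with both doses, 545 ± 196 TPM in Low 9 h and 513 ± 270.4 TPM in High 9 h.

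**Figure D4:**
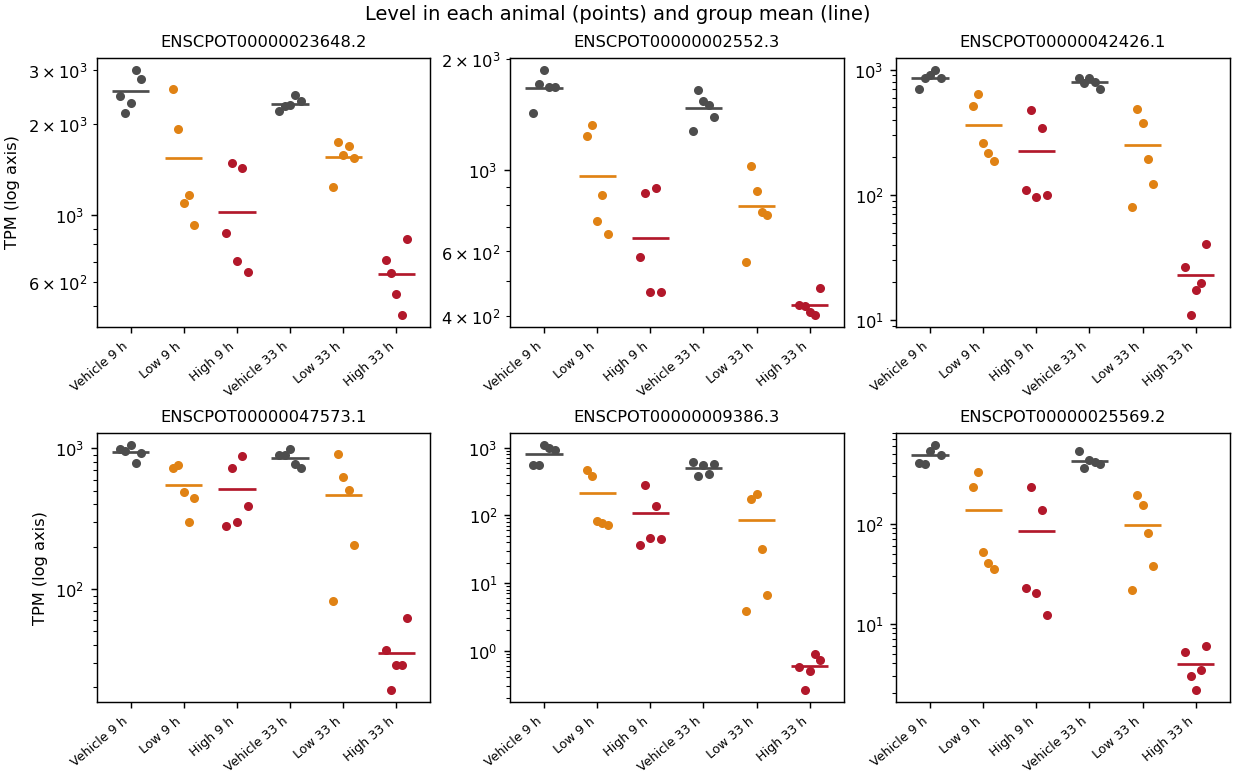
Level in TPM (log axis) of 6 members in each animal (points) by group, with the group mean as a line; the vehicle animals are grey, the low dose orange and the high dose red. In the lower row and in ENSCPOT00000042426.1, the high-dose means at 33 h are under 10% of vehicle. The low-dose values at 33 h spread between the high-dose and vehicle values, except animal 49 for ENSCPOT00000047573.1, which lies within the vehicle range.

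Not all members behaved in this way. ENSCPOT00000012405.3 was the member with its lowest L in Low 33 h, at -2.97 compared with -2.41 in High 33 h. It had 34.2, 12.8, 6.78, 5.84 and 34.8 TPM in Vehicle 33 h, 0.797, 1.67, 3.15, 1.00 and 1.02 TPM in Low 33 h, and 7.86, 3.27, 0.508, 0.669 and 1.39 TPM in High 33 h. Both treated groups overlapped each other, and the vehicle animals themselves were spread widely. ENSCPOT00000000420.3, chosen after its values were seen, was erratic, with 14.7, 8.33, 0, 17.7 and 8.42 TPM in Vehicle 9 h. It stood at 0 in 4 of the 5 animals of each dose at 9 h, while in Vehicle 33 h it ranged from 0 to 7.83 TPM. ENSCPOT00000041649.1, with 105 bases, reached at most 118 estimated counts in any animal and 0 to 3 in High 33 h, so its values carry a large counting error. L was lower with the high than with the low dose for 136 members at 9 h, 137 at 33 h and 131 at both times. The exceptions at 33 h were ENSCPOT00000001597.3, ENSCPOT00000012405.3, ENSCPOT00000023551.2, ENSCPOT00000002490.3 and ENSCPOT00000004174.3, which were chosen after their values were seen.

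The member nearest to the limit was ENSCPOT00000009596.3, with an L of -0.58 in Low 9 h, -0.92 in High 9 h, -0.63 in Low 33 h and -1.16 in High 33 h. The nearest transcript outside was ENSCPOT00000012390.3, with an L of -0.63, -0.577852, -0.74 and -2.20, which missed the limit in High 9 h only. A further 163 transcripts passed the limit everywhere except in Low 33 h, 73 everywhere except in Low 9 h, 8 except in High 9 h and 7 except in High 33 h. The mirrored rule, an L of at least 0.58 in all 4 groups, was met by 114 transcripts.

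Each comparison was then fitted across all transcripts with edgeR's quasi-likelihood test, with a Benjamini-Hochberg adjusted p of at most 0.1 as the threshold for a call. Of the members, 141 had enough counts to be tested, and ENSCPOT00000002490.3 was not tested. Against vehicle, 116 members were called lower in Low 9 h, where 23.1% of all tested transcripts were called, 11.3% lower and 11.7% higher. In High 9 h, 135 members were called lower, where 32.8% of all were called, 15.9% lower and 16.9% higher. In Low 33 h, 26 members were called lower, where 0.897% of all were called, 0.421% lower and 0.476% higher. In High 33 h, 137 members were called lower, where 49.2% of all were called, 24.1% lower and 25.1% higher. No member was called higher. The rule used these contrasts, and nothing is read from the counts.

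The number of calls in Low 33 h moved with single animals, among the members and among all 19729 transcripts tested. With all 10 animals, 26 members and 177 transcripts in all were called. Without animal 49, the animal nearest to vehicle, 110 members and 2079 transcripts in all were called, and without animal 50 these numbers were 20 and 117. Without animal 48 they were 5 and 36, without animal 46 they were 2 and 17, and without animal 51 they were 2 and 31. Without animal 43, 44, 45, 47 or 52 no member was called by edgeR, and 11 to 17 transcripts in all were, while 104 to 111 members had an unadjusted p under 0.05. At 9 h, with animals 31 and 32 as the only vehicle animals, 2 members were called in Low 9 h and 9 in High 9 h, in fits with 2 controls in place of 5. The calls among all transcripts dropped as well, from 4550 to 45 in Low 9 h and from 6462 to 125 in High 9 h.

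The doses were also set against each other directly. The rule used the means of both dose groups, and a low-dose group was the one nearest to the limit for most members, so this contrast is not independent of the choice. The counts and values of this contrast are therefore a description of the chosen members, and nothing is read from their share against that of all transcripts. At 9 h, no member and no other transcript was called with edgeR (0% of all tested transcripts). The log2 fold change of high against low dose was negative for 134 of the 141 members, with a median of -0.51 (50.5% negative and a median of 0.00 over all tested transcripts), and 7 members (638 of all tested transcripts) had an unadjusted p under 0.05. DESeq2 and limma called 0 members as well, and 14 and 0 transcripts in all. In no member did all 5 high-dose animals lie under all 5 low-dose animals at 9 h, which 0.36% of all tested transcripts did.

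At 33 h, edgeR called 115 of the 141 chosen members lower with the high than with the low dose and none higher. Of all tested transcripts, 28.7% were called in either direction, 15% lower and 13.7% higher with the high dose. The median log2 fold change of the members was -1.56, compared with -0.01 over all tested transcripts, and 46 of the called members had a log2 fold change of -2 or less. All 5 high-dose animals lay under all 5 low-dose animals in 90 members, against 5.46% of all tested transcripts. Among the called members, the most negative values were those of ENSCPOT00000009386.3 (log2 fold change -7.25 ± 1.34 SE) and ENSCPOT00000025515.2 (-5.36 ± 0.65 SE). ENSCPOT00000000758.3, named after its value was seen, was not called and stood at 0 in all 5 animals of High 33 h, so no fold change is given. The 2 most abundant members had -1.35 ± 0.17 (ENSCPOT00000023648.2) and -0.97 ± 0.15 (ENSCPOT00000002552.3). ENSCPOT00000012405.3 and ENSCPOT00000001597.3 had positive values of 0.79 and 0.03, neither of them called. ENSCPOT00000004174.3 was also fitted as higher and not called, but it stood at 0 in all 5 animals of Low 33 h and averaged 0.0184 TPM in High 33 h, so no fold change is given.

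**Figure D5:**
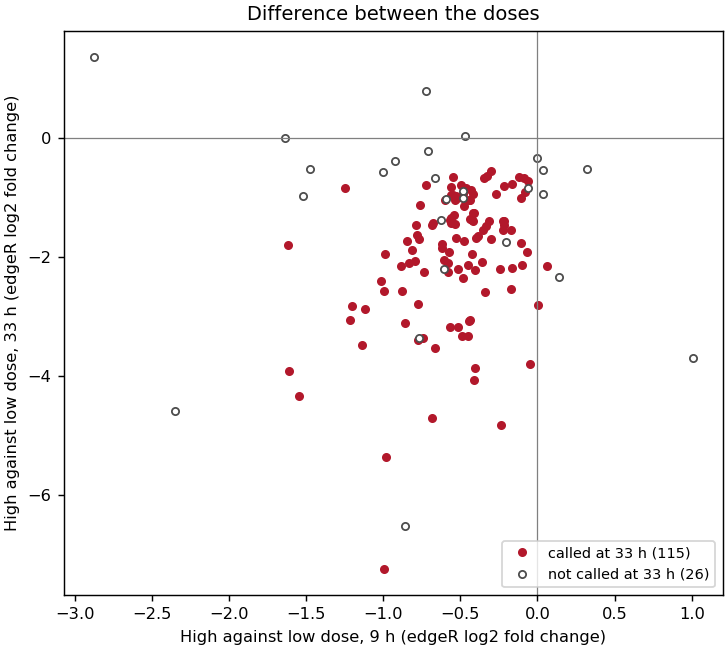
Log2 fold change of the high against the low dose from edgeR at 9 h (horizontal axis) and at 33 h (vertical axis) for the 141 members tested, with filled points for the 115 members called at 33 h and open points for the other 26 (among them ENSCPOT00000004174.3, ENSCPOT00000000758.3 and ENSCPOT00000022566.2, named after their values were seen, whose fitted values at 33 h rest on a group at 0). Most members lie left of and below 0, and the values at 33 h extend to -7.25.

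The effect of the high dose against vehicle was also contrasted between 33 h and 9 h. All 4 groups of this contrast entered the rule, so its values describe the chosen members and nothing is read from their share. Over these 20 animals edgeR called 55 members lower at 33 h than at 9 h and none higher, while 10.3% of all tested transcripts were called lower, 10.2% higher and 20.5% in either direction. The median difference of the members was -0.90, and that of all tested transcripts -0.03. ENSCPOT00000009386.3 differed by -6.74 ± 0.79 SE and ENSCPOT00000047573.1 by -3.70 ± 0.46 SE. For ENSCPOT00000023648.2 the difference of -0.50 ± 0.30 SE was not called. Of the 55 members, 53 were also called between the doses at 33 h, and the High 33 h animals enter both comparisons.

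The vehicle animals of both times were also set against each other. Both vehicle means entered the rule as denominators of L, so this contrast is not independent of the choice either, and its values describe the chosen members. With edgeR, no member and no other transcript was called (0% of all tested transcripts), while 43 members (2311 of all tested transcripts) had an unadjusted p under 0.05. The log2 fold change of 33 h against 9 h was negative for 114 of the 141 members, with a median of -0.23, while 49.1% of all tested transcripts were negative, with a median of 0.00. DESeq2 called 14 members among 582 transcripts in all, and limma 1 among 8. With animals 58, 59 and 60 as the only vehicle animals at 9 h, edgeR called 37 members among 610 transcripts in all. Animal 31 was the lowest of Vehicle 9 h in 67 members (47.2%, against 7.15% of the transcripts of at least 1 TPM). Over the transcripts of at least 1 TPM, animals 58 and 59 were the lowest in 42.0% and 35.6%. Animals 31 and 32 were the highest in 30.8% and 39.7%. A single transcript held 13.7% of the estimated counts in animal 59 and 4.76% in animal 58, against 1.85%, 1.94% and 2.04% in animals 31, 32 and 60. The cause of this split was not tested. The parts follow the animal numbers, since 58, 59 and 60 come after those of the 33 h groups. The vehicle means at both times differed by at most 1.5-fold for 125 of the 142 members.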

How the data were processed

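Kidney RNA of 30 guinea pigs (5 per group) was sequenced from stranded poly-A libraries in 75-base paired reads. Reads were pseudo-aligned by the authors using Kallisto (0.42.4 per the labels) to the Ensembl guinea pig transcriptome (release not given in the sources used here), who deposited a TPM value and an estimated count (not normalized, not always whole) of 25824 transcripts per animal. Transcripts were taken as listed, without summing to genes.

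Members, levels and L were computed from the deposited TPM values with a pseudocount of 1 TPM. The members, lists, tests and alternatives were chosen with earlier results of these data known. Named transcripts were the 2 of highest vehicle level, the 2 of lowest mean L with at least 5 TPM in both vehicle groups, the 2 with the largest called difference between the doses at 33 h in each direction (none was higher), the 2 with the largest called difference between the vehicle groups (none was called), and those nearest to the limit. Others are said to be chosen after their values were seen. The planned kidney marker and pathway lists could not be used without gene symbols, and no sequence of a member was read.

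The deposited estimated counts were rounded and tested in R 4.3.3 with edgeR 4.0.16 (filterByExpr over 30 animals and 6 groups, TMM, glmQLFit and glmQLFTest), with only the compared groups in a fit, and 19729 transcripts were tested. The SE of a log2 fold change was its size divided by the square root of the F statistic. Alternatives were DESeq2 1.42.0, limma-trend (limma 3.58.1), RLE normalization, no filter beyond 1 count, a threshold of 0.05, 1 fit over all 30 animals, part of the Vehicle 9 h animals as controls, and leave-one-out fits. The authors' own test was Sleuth. Scripts were tested on simulated data. Animals are separate, and p-values measure the spread between these animals only. Counting error covers reads, not molecules.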

Additional observations from a re-analysis of the deposited data

Results flagged for a closer look

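The effect of the high dose differed between 33 h and 9 h for 55 members in the contrast over 4 groups (edgeR's quasi-likelihood test, adjusted p of at most 0.1), and all 55 were lower at 33 h. Of all tested transcripts, 20.5% were called and 10.3% were lower. The members were chosen on the same 4 groups, so this count describes the set and is no independent test of it.

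Among 84 sets of 5 animals checked for one animal far from the others (the named transcripts and the set's median and share, by group), 6 were found. Chance at 1 in 20 gives 4.2, but that rate does not apply to transcripts chosen after their values were seen. All 6 belonged to transcripts chosen in that way. These were ENSCPOT00000000420.3, with 0 to 580 estimated counts per animal, and ENSCPOT00000041649.1, with 0 to 118. ENSCPOT00000000420.3 stood at 0.117 TPM in animal 37 of Low 9 h, at 0.271 TPM in animal 41 of High 9 h and at 0.0794 TPM in animal 57 of High 33 h, with 0 in the other animals of those groups. With the others at 0, any value above 0 counts as far. In Vehicle 33 h it stood at 7.83 TPM in animal 46, and the next highest animal had 1.20 TPM. ENSCPOT00000041649.1 stood at 156 TPM in animal 39 of High 9 h (next highest 39.2 TPM) and at 249.8 TPM in animal 50 of Low 33 h (next highest 73.9 TPM).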

How the results depend on the processing

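The number of members was 142 and became 262 with a pseudocount of 0.1 TPM, 72 with 5 TPM and 24 with a limit of -1. Leaving out 1 animal at a time gave 108 (without animal 48) to 199 (without animal 49), and 73 members stayed in the set in all 30 such runs. With group medians there were 207 members (122 shared), with CPM on TMM totals 172 (126 shared), and with all 10 vehicle animals as controls 164 (121 shared). With animals 31 and 32 as the only vehicle animals at 9 h, 2 members were called in Low 9 h (45 transcripts in all) and 9 in High 9 h (125 in all). In Low 33 h, 26 members were called with edgeR (177 transcripts in all), 0 at an adjusted p of 0.05 (14 in all), 12 without the filter (88 in all), 40 with limma (217 in all), 45 with all 30 animals in one fit (1098 in all) and 101 with DESeq2 (1472 in all), and leaving out 1 animal gave 0 to 110 (11 to 2079 in all). Between the vehicle groups, 0 members were called with edgeR, 14 with DESeq2 (582 in all), 1 with limma (8 in all) and 37 with animals 58, 59 and 60 as the 9 h controls (610 in all), and leaving out 1 animal gave 0 to 2 (0 to 35 in all). Between the doses at 9 h every alternative gave 0 members (0 to 14 transcripts in all). Between the doses at 33 h, 109 to 118 members were called over all alternatives (115 as reported, and 3946 to 6552 transcripts in all), and for the high dose between times 40 to 64 (55 as reported, and 2868 to 4463 in all). For single transcripts, 460 of 462 alternative values kept their direction and their side of the threshold. With 1 animal left out at a time, the difference between the doses at 33 h of ENSCPOT00000012405.3 ranged from -0.17 (without animal 53) to 1.25, around 0.79. The high-dose difference between times of ENSCPOT00000000420.3, fitted at 0.75 on 0 to 8 counts per high-dose animal, ranged from -1.30 (without animal 57) to 4.59. The cause of these shifts was not tested. No paired analysis was possible because the animal numbers are not shared between groups. Transcripts under about 10 counts per animal in High 33 h carry a large counting error.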
